A study of Mus musculus with 45 samples.

Results

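The 46 genes described here encode proteins that build the mitotic spindle, attach chromosomes to it and drive cells through mitosis and cytokinesis. They were chosen by name, with earlier results of these data known, and all 46 were found among the 57010 genes of the count table and passed the filter on low counts, which left 16194 genes for testing. Total RNA was sequenced from primary wild-type mouse embryonic fibroblasts (MEFs), connective-tissue cells grown from embryos, in 15 groups of 3 libraries. H2O2-induced cells had been exposed to 200 µM hydrogen peroxide for 24 h, and etoposide-induced cells to 2 µM etoposide, a topoisomerase II inhibitor, for 24 h. Both then spent 5 days in normal medium to become senescent, a lasting arrest of division, while uninduced cells received no inducer. Within each state, groups received alpha-eleostearic acid (ESA, a conjugated fatty acid), ESA after ferrostatin-1 (Fer-1, which blocks ferroptosis, cell death by lipid peroxidation), the methyl ester of ESA (ESA-Me), ESA-Me after Fer-1, or the ethanol vehicle. Fer-1 was given at 2 µM, starting 1 h before exposures that lasted 12 h. The labels of the samples state 2 µg/mL whichever compound was used, whereas the protocol text lists ESA at 10 µg/mL but its methyl ester at 20 µg/mL. The compounds are therefore not compared with each other. No group received Fer-1 alone, and each group is stated to hold 3 biological replicates.

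Mitotic genes are transcribed in a wave late in the cell cycle, and quiescent or senescent cells keep them low. The DREAM complex represses them in resting cells, and B-Myb (Mybl2) and FoxM1 join the MuvB core of that complex to activate them in cycling cells. A short promoter element called the cell cycle genes homology region (CHR), which MuvB contacts, and CCAAT boxes, which the factor NF-Y binds, are common features of such promoters. The 46 genes were grouped by role into transcriptional regulators (2), cyclins and Cdk1 (4), mitotic kinases (4), the chromosomal passenger complex (3), centromere and kinetochore proteins (8), spindle assembly checkpoint proteins (4), anaphase regulators (3), mitotic kinesins (9), spindle proteins (3), cytokinesis proteins (3), chromosome proteins (2) and Depdc1a, a proliferation-associated gene.

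Libraries held 13.5 to 59.6 megareads, with a median of 22.7. The summed level of 8 fibroblast markers was 12000 to 22900 CPM (counts per megaread) in every library, against 30.3 to 228 CPM for 5 macrophage markers and at most 2.42 CPM for 4 endothelial and 1.65 CPM for 4 epithelial markers. The summed level of 4 neural markers was 271 to 1690 CPM, mostly Nes (179 to 1620 CPM). Tubb3 had 48.7 to 102 CPM, while Sox2 reached at most 0.467 CPM. The summed level of 3 chondrocyte markers was 100 to 941 CPM, mostly Col2a1. Within a state, libraries that share a replicate number deviated together and shared sex-linked transcript levels. The etoposide-induced ESA-Me plus Fer-1 library of replicate 3 did not follow its number in Y-linked transcripts or in the level of the 46 genes. It is called below, for these traits only, the library that did not follow its number. Over all genes it did deviate with its number (r at least 0.61 against same-numbered vehicle, other numbers at most -0.09). Its Xist was 327 CPM, against 352 to 678 CPM in the other etoposide-induced libraries numbered 3. Its 4 Y-linked genes summed to 92.7 CPM, whereas the other etoposide-induced libraries numbered 3 held no count of them, which allows at most 0.116 to 0.163 CPM. Its summed level of the 46 genes was 597 CPM, against 335 CPM in the vehicle library of replicate 3 and 837 CPM in that of replicate 2. Results that rest on this library are given with and without it.

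Promoter windows of 300 bases, from 250 before to 50 after the RefSeq start on GRCm38.p6, were given for 38 of the 46 genes, as 40 promoters. The CHR letters TTTGAA, searched on both strands, were in 29 of the 40 promoters (72.5%), against 17.9% of the 32851 promoters of all genes in the same table. CCAAT, searched on both strands, was in 28 of them (70%), against 37.4% of all promoters. A CHR (TTTGAA or the variant TTCGAA) together with a CCAAT was in 25 of them (62.5%), against 7.52% of all promoters, and the letters of the motifs did not overlap in any member. Other lists of mitotic genes held the motifs too: of 20 promoters of further spindle and cytokinesis genes 65% held a CHR and 50% both motifs, of 16 of condensin and cohesin genes 56.2% and 31.2%, and of 41 of further kinetochore and centromere genes 43.9% and 31.7%. CCAAT was in 68.3% of the last and in 75% of 12 promoters of regulators of Cdk1 activity, of which 25% held a CHR and 25% both. The shares with a CHR and with both were 30.8% and 23.1% of 26 promoters of DREAM, MuvB and E2F genes, 21.1% and 5.26% of 19 of the anaphase-promoting complex, and 7.69% and 0% of 13 of kinesins of intracellular transport. Among the 28 members with either CHR form, a CHR began within 50 bases of the start in 26. The 7 members whose windows held neither motif were Mybl2, Plk4, Birc5, Nuf2, Mad2l1, Pttg1 and Nusap1.

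The 110 bases just before the start of 5 members are shown because the values of these genes recur below and each stretch holds both motifs. They read 5′ to 3′ on the gene's own strand, with CHR (TTTGAA, or TTCAAA where the motif lies on the other strand) and CCAAT (or ATTGG) in capitals. They lie at chr10:69352913-69353022 (minus strand) for Cdk1, chr4:118437344-118437453 (minus strand) for Cdc20, chr19:37376272-37376381 (plus strand) for Kif11, chr3:159495323-159495432 (plus strand) for Depdc1a and chr11:99024190-99024299 (minus strand) for Top2a.
Cdk1: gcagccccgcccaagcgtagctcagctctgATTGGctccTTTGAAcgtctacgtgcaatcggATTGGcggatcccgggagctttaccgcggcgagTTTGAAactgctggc
Cdc20: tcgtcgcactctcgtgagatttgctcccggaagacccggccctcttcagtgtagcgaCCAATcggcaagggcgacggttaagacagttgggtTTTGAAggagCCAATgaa
Kif11: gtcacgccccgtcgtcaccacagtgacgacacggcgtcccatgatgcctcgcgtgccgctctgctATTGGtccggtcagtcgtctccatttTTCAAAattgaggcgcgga
Depdc1a: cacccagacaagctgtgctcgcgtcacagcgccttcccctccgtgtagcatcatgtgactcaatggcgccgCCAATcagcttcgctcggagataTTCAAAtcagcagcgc
Top2a: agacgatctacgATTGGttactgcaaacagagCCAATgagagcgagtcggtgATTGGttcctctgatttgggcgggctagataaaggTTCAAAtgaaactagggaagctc
In each stretch the CHR lies nearer to the start than at least 1 CCAAT. These letters describe the promoters, and binding was not measured.

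In uninduced vehicle cells, the levels per length of the 46 genes spanned from 2.19 ± 0.0635 CPM per kb of exon for Kif15, a spindle kinesin, to 43.4 ± 4.35 CPM per kb for Cdc20, the activator of the anaphase-promoting complex (SD, n = 3). Tpx2, a spindle assembly factor that activates Aurora A, had 36.7 ± 2.11 CPM per kb and the kinase Plk1 35.7 ± 4.87 CPM per kb, a pair whose SDs overlap. Kif20a, at 31.5 ± 3.04 CPM per kb, and Ccnb2, at 30.2 ± 2.85 CPM per kb, also lay within their SDs of each other. The lowest levels after Kif15 were those of the kinetochore protein Cenpf (2.91 ± 0.417 CPM per kb) and the kinetochore-microtubule coupler Ska1 (2.98 ± 0.0878 CPM per kb). The genes lie on 16 chromosomes. Exons of 12 of them overlap another annotated gene in GENCODE M21, most in Kif20a, which shares 29.3% of its exon bases with Cdc23 on the opposite strand. The strand setting of the counting is not given in the sources used here, so reads of such overlapping genes may not be told apart.

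Senescent cells held a small fraction of the mitotic transcripts of uninduced cells. With vehicle, 45 of the 46 genes were lower in H2O2-induced than in uninduced cells (8.56% of all genes tested were lower), with a median log2 fold change of -3.12, or 11.5% of the uninduced level. In etoposide-induced cells 45 were lower (8.52% of all genes tested) with a median of -2.93, or 13.1%, and 1 was higher (9.17% of all genes tested were higher). Across all genes the median log2 fold change was 0.03 in both comparisons, which share the uninduced libraries. In these bulk samples, fewer cells in mitosis and less RNA per cell cannot be told apart.

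Marker lists of some other cell types were also lower in senescent cells, described here without a test. Over all treatments, the summed level of 4 skeletal muscle markers was 14.4 to 36.3 CPM after H2O2 and 8.71 to 34.8 CPM after etoposide, against 40 to 85.4 CPM in uninduced cells. Nearly all of it was Des, while the defining markers Myod1 and Myog reached at most 0.231 and 0.281 CPM in any library. The 3 chondrocyte markers had medians of 354 CPM after H2O2 and 341 CPM after etoposide, against 745 CPM in uninduced cells, with ranges that overlapped. Of these 3, Col2a1 had lower medians (323 and 304 CPM, against 717 CPM in uninduced cells), Sox9 had higher ones (21.8 and 22.6 CPM, against 18.9 CPM) and Acan had 8.74 and 9.15 CPM, against 9.34 CPM. The 4 endothelial, 4 epithelial and 3 adipocyte markers also had lower medians in both induced states, at levels of at most 17.8 CPM. The part of other cell types in the fall of the mitotic genes was not tested.

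Both regulators fell. Mybl2, the B-Myb subunit of the activating MuvB complex, had 2.71, 2.78 and 2.59 CPM in H2O2-induced cells and 2.2, 4.2 and 1.44 CPM in etoposide-induced cells, against 17.1, 22.5 and 17.5 CPM in uninduced cells. Foxm1 had 9.3, 11.2 and 11.8 CPM in H2O2-induced cells and 7.73, 19.3 and 9.55 CPM in etoposide-induced cells, against 76.2, 89.3 and 75.7 CPM in uninduced cells. No induced library reached an uninduced one for either gene, and the Foxm1 log2 fold changes were -2.90 ± 0.34 (adjusted p = 3.11e-07) with H2O2 and -2.71 ± 0.34 (adjusted p = 9.1e-07) with etoposide (edgeR quasi-likelihood test, ± standard error).

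All 4 genes of the cyclin group fell with either inducer. Cdk1, the kinase that triggers mitosis, had 15.2, 17.6 and 26.8 CPM in H2O2-induced cells and 8.61, 41.2 and 18.6 CPM in etoposide-induced cells, against 124, 141 and 121 CPM in uninduced cells. Its cyclin partner Ccnb2 was further down, at 2.88, 3.84 and 6.82 CPM with H2O2 and 0.629, 7.63 and 2.74 CPM with etoposide, against 42.1, 50.8 and 45.9 CPM in uninduced cells. The lowest log2 fold changes after H2O2 were those of Mki67, which coats mitotic chromosomes and serves as a proliferation marker (-3.72 ± 0.98, adjusted p = 0.00651), the microtubule depolymerase Kif2c (-3.68 ± 0.75), the centromeric histone Cenpa (-3.60 ± 0.77) and Depdc1a (-3.54 ± 1.01). After etoposide they were those of Depdc1a (-3.66 ± 1.01, adjusted p = 0.00932), Ccnb2 (-3.61 ± 0.69), the checkpoint kinase Bub1 (-3.36 ± 0.80) and Cenpa (-3.30 ± 0.76).

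By role, the medians after H2O2 ran from -2.80 for the chromosomal passenger genes to -3.47 for Top2a and Mki67, with Depdc1a alone at -3.54. The smallest falls in both comparisons were those of the kinetochore subunit Spc25 (-1.87 with H2O2 and -1.89 with etoposide), the checkpoint protein Mad2l1 (-2.02 and -2.03) and the passenger scaffold Incenp (-2.07 and -2.02). All 45 genes that fell had 3 induced libraries below the 3 uninduced ones in each comparison. Such separation of groups was counted for the members alone, here and below, so no share over all genes stands beside it. Between H2O2-induced and etoposide-induced vehicle cells 0 of the 46 were called by edgeR, 0 at an unadjusted p under 0.05 and 0 by DESeq2, with a median log2 difference of -0.13. Same-numbered libraries of these 2 groups deviated together (r = 0.62 to 0.76, other numbers at most -0.04). With the number as a block in a fit of the 2 groups alone, edgeR again called 0 of the 46, with 0 at an unadjusted p under 0.05, and the median was 0.13, of the opposite sign.

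Pttg1, which encodes securin, the inhibitor of separase, did not follow the other genes. It had 15.7, 18.7 and 18.9 CPM in H2O2-induced cells and 17.4, 21.1 and 20.8 CPM in etoposide-induced cells, against 14, 13.2 and 16.2 CPM in uninduced cells. The log2 fold change was 0.45 ± 0.14 with etoposide (adjusted p = 0.0241), and all 3 etoposide-induced libraries lay above the 3 uninduced ones. With H2O2 it was 0.30 ± 0.14 (adjusted p = 0.158) and the groups overlapped. The etoposide call was lost without uninduced vehicle replicate 1 or 2, or without etoposide-induced vehicle replicate 2 or 3. Across the 45 libraries, log2 CPM of Pttg1 correlated with the mean of the other members at Pearson r = -0.46, whereas the next lowest correlation was 0.91, for Tpx2; these values are descriptions, since the libraries share states.

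**Figure D1:**
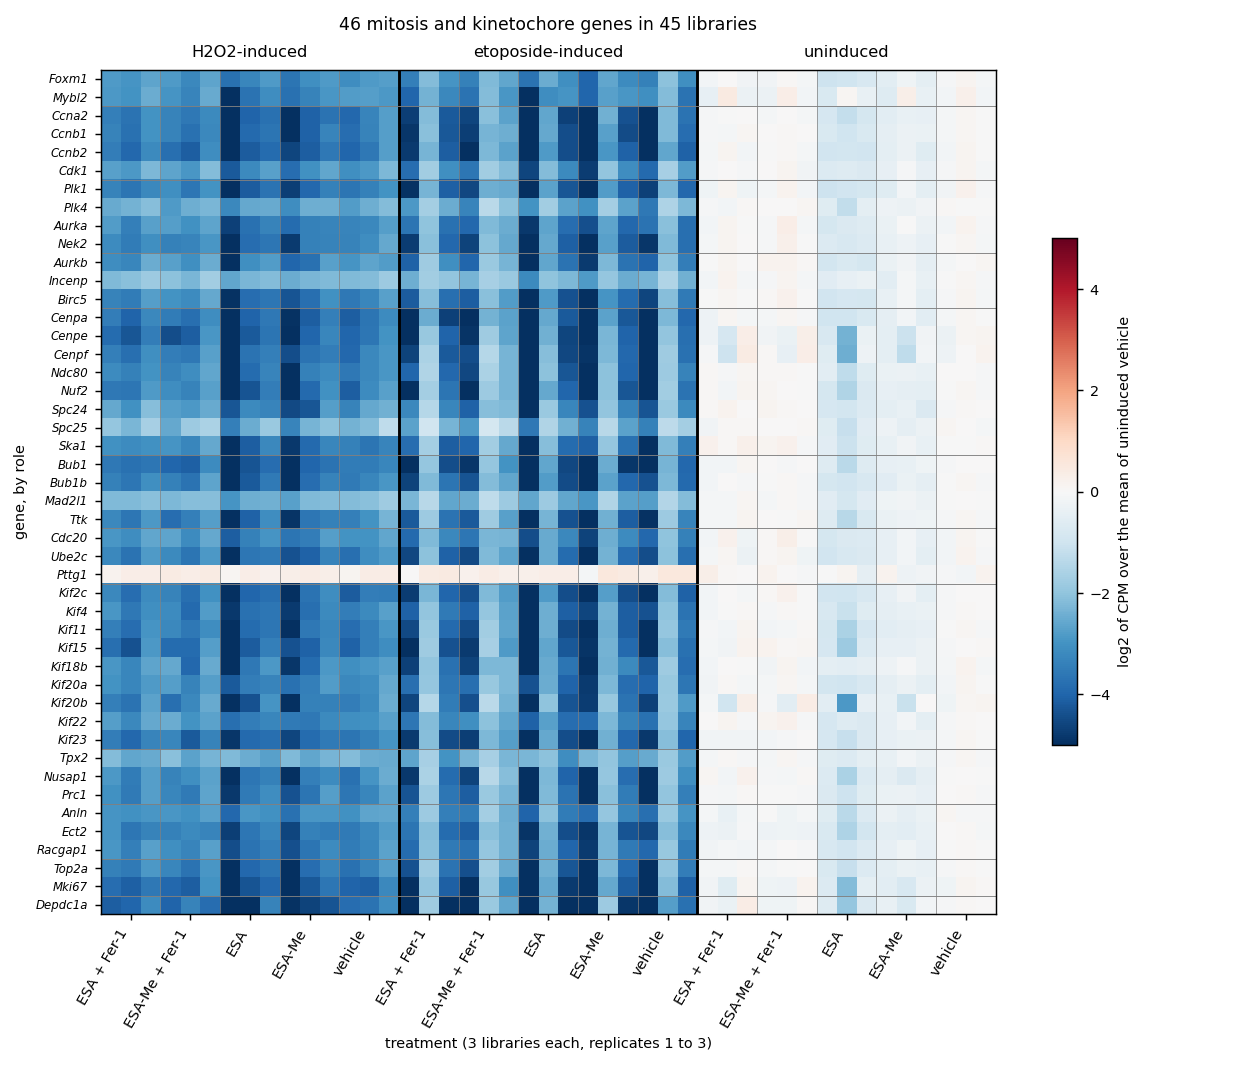
Heat map of the 46 genes (rows, by role) in 45 libraries (columns, 3 per treatment and state), coloured by the log2 of CPM over the mean of uninduced vehicle cells. Blue marks levels below that mean and red levels above it. The induced libraries are blue for 45 genes, while Pttg1 is near white or pale red in them, with 13.6 CPM in etoposide-induced ESA-Me replicate 1 as its lowest value, and the uninduced ESA libraries are blue for the genes other than Mybl2 and Pttg1, darkest at Kif20b in replicate 2.

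The residual mitotic transcripts of senescent cells varied with the replicate number. In etoposide-induced vehicle cells the median gene stood at 3.92%, 25.1% and 8.52% of the uninduced mean in replicates 1, 2 and 3, and replicate 2 was the highest for 46 of 46 genes. In H2O2-induced vehicle cells the medians were 8.77%, 10.8% and 14.8%, with replicate 3 highest for 42 genes. The highest replicate exceeded the lowest by a median of 5.83-fold with etoposide, 1.68-fold with H2O2 and 1.13-fold in uninduced cells. Mki67 had 5.72, 49.8 and 13.4 CPM in etoposide-induced vehicle replicates, against 190, 241 and 234 CPM in uninduced ones. Without etoposide-induced replicate 2 the median log2 fold change was -3.99, and without replicate 1 it was -2.54, with Cenpe, Cenpf, Nuf2, Spc25, Kif20b, Nusap1, Mki67 and Depdc1a no longer called. Without etoposide-induced replicate 3 it was -2.70, and Cenpe, Cenpf, Nuf2, Pttg1, Kif20b, Nusap1 and Mki67 were no longer called. Without H2O2-induced replicate 1, Nuf2, Spc25, Kif20b, Nusap1 and Depdc1a were no longer called, and without replicate 2 the last 4 of these were not. Kif20b also lost its etoposide call without uninduced vehicle replicate 2. Etoposide-induced replicate 2 also differed in sex-linked transcripts (Xist at most 0.311 CPM, against at least 134 CPM in replicates 1 and 3). H2O2-induced replicate 2 nearly lacked Xist too (0.105 to 0.135 CPM), but was the highest replicate for only 3 genes. Uninduced cells had another make-up, with Xist at 217 to 350 CPM in replicate 2 and nearly absent from the others. Every uninduced library held Y-linked transcripts (29.7 CPM or more), unlike most induced libraries numbered 3. The part of these sex-linked differences in the residual levels, or in the fall from uninduced cells, was not tested.

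**Figure D2:**
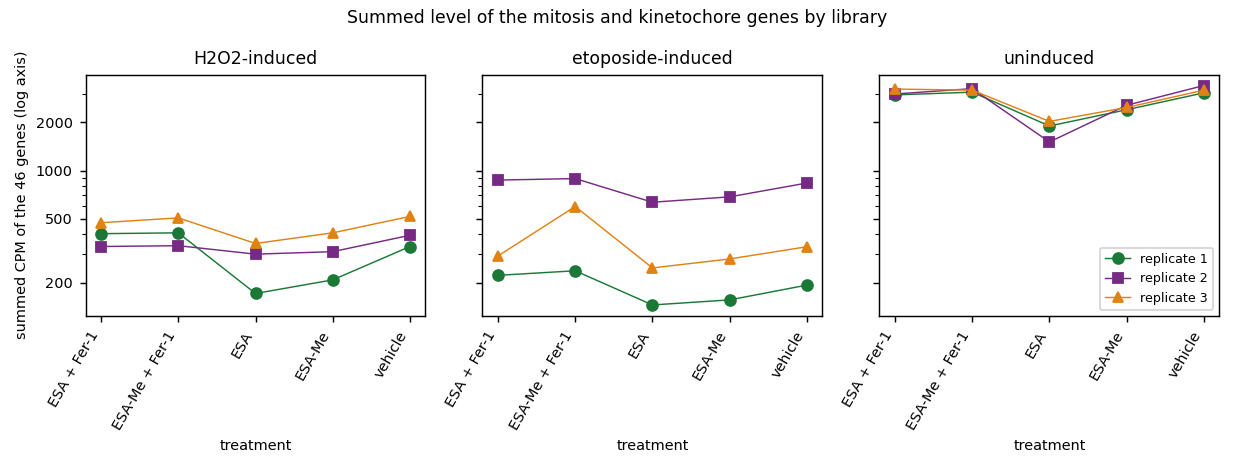
Summed CPM of the 46 genes in each library (log axis) by treatment and state, with points for replicates 1 to 3. Etoposide-induced replicate 2 lies above replicates 1 and 3 in all 5 treatments, and the ESA-Me plus Fer-1 library of replicate 3 reaches 597 CPM, against 335 CPM in its vehicle library.

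Mitotic genes were lower with ESA in uninduced cells, the cultures without an inducer of senescence. The summed level of the 46 genes was 1900, 1510 and 2030 CPM with ESA, against 3060, 3400 and 3180 CPM with vehicle. All 46 log2 fold changes were negative, against 52.6% of all genes tested. For 44 genes the 3 ESA libraries lay below the 3 vehicle ones, which was not counted over all genes. Comparing libraries of the same replicate number within a state, called the replicate block below, 43 of the 46 were lower (10.5% of all genes tested were lower), with a median log2 fold change of -0.86, or 55.2% of vehicle. Without the block the median was -0.85, but 0 genes passed in edgeR and 0 in DESeq2. At an unadjusted p under 0.05 there were 4 of the 46, a share not above that of all genes (1784 of 16194).

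The regulator Foxm1 had 39.5, 40.1 and 46.7 CPM with ESA, against 76.2, 89.3 and 75.7 CPM with vehicle, a log2 fold change of -0.93 ± 0.11 (adjusted p = 1.14e-06, here and below with the block). Ccnb2 had 23.6, 24.5 and 23.5 CPM with ESA, against 42.1, 50.8 and 45.9 CPM with vehicle (-0.95 ± 0.15, adjusted p = 7.3e-05). In both genes every ESA library lay well below every vehicle library. Mybl2, in contrast, had 11.3, 20.1 and 14.7 CPM with ESA and 17.1, 22.5 and 17.5 CPM with vehicle, groups that overlapped (-0.33 ± 0.19, adjusted p = 0.232).

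All 4 mitotic kinases, all 3 passenger genes, all 8 centromere and kinetochore genes, all 4 checkpoint genes and 8 of the 9 kinesins passed the test as lower. Plk1 had 38.3, 40.9 and 42.5 CPM with ESA, against 70.3, 90.6 and 74.5 CPM with vehicle. Birc5, or survivin, the passenger subunit that brings Aurora B to centromeres, had 26, 28.3 and 27.2 CPM with ESA, against 47.8, 55.9 and 47 CPM with vehicle (-0.88 ± 0.15, adjusted p = 9.07e-05). Cenpa had 28.8, 28.9 and 33.2 CPM with ESA, against 53.4, 61.6 and 56.1 CPM with vehicle. None of these 3 genes overlapped between treatments.

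The lowest log2 fold changes were those of Kif20b, a kinesin of cytokinesis (-1.16 ± 0.30), the kinetochore motor Cenpe (-1.11 ± 0.27), and Kif11, the Eg5 motor that pushes spindle poles apart (-1.08 ± 0.25), with Kif15 and Depdc1a at -1.06. The 3 genes not called were Pttg1 (-0.11 ± 0.11, adjusted p = 0.569), Mybl2 and Kif18b (-0.48 ± 0.24, adjusted p = 0.16), the last a motor that shortens astral microtubules. The smallest change called was that of Incenp (-0.43 ± 0.10, adjusted p = 0.00318).

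**Figure D3:**
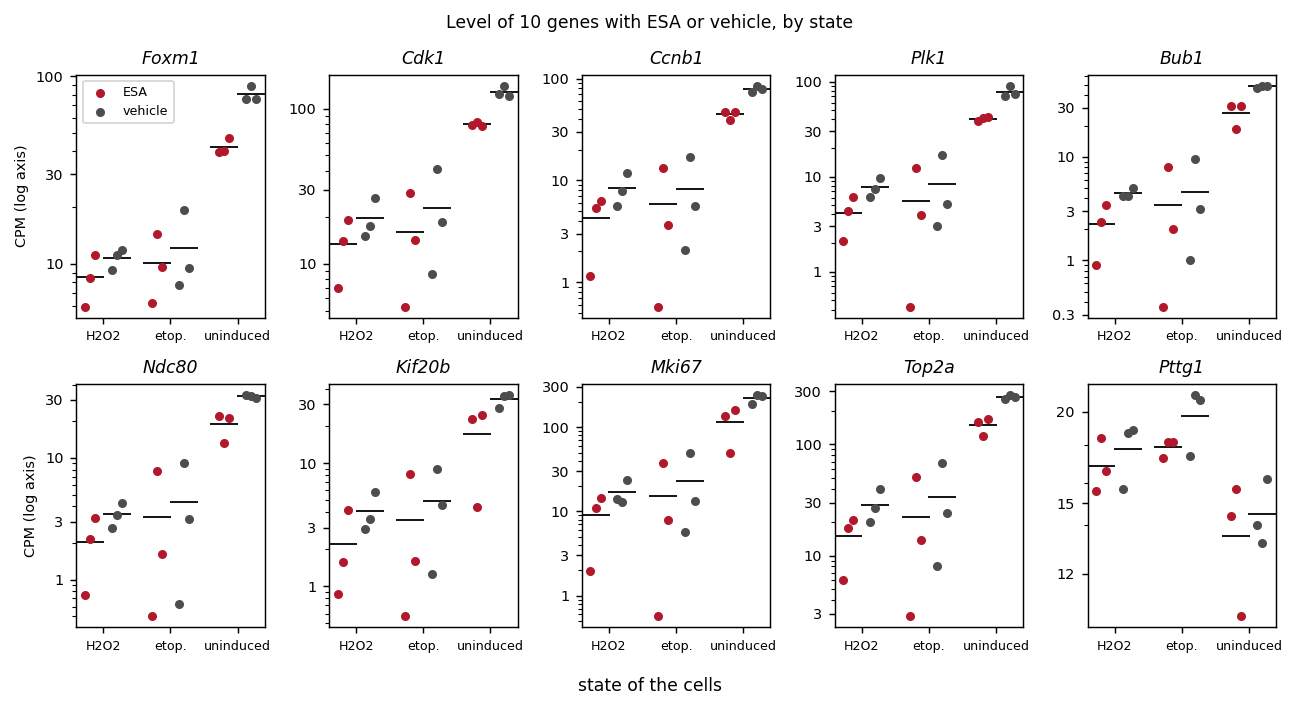
CPM (log axis) of 10 of the genes with ESA (left of each pair) and vehicle in H2O2-induced, etoposide-induced and uninduced cells, 1 point per library (n = 3 per group) and a line at each mean. In uninduced cells Foxm1 lies at 39.5 to 46.7 CPM with ESA and 75.7 to 89.3 CPM with vehicle, while Pttg1 overlaps between treatments.

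The size of the ESA change depended on the replicate. The median gene stood at 60.8%, 46.1% and 62.9% of the same-numbered vehicle library in replicates 1, 2 and 3. In replicate 2, Kif20b fell to 4.39 CPM with ESA, against 34.8 CPM with vehicle, or 12.6%, while in replicates 1 and 3 it had 22.9 and 24.7 CPM with ESA, against 28.1 and 35.7 CPM with vehicle. Cenpf had 8.16 CPM with ESA in replicate 2, against 45.7 CPM with vehicle, and Mki67 had 49.5 CPM with ESA, against 241 CPM with vehicle. Cenpf, Mki67 and Kif20b have 15433, 10061 and 6957 exon bases. In that replicate, the 8 members with over 8000 exon bases had a median of 34.5% of vehicle and the 13 members with under 4000 had 50.4%, with a Spearman rho of -0.51 between exon length and percent of vehicle over 46 genes, against 0.18 and 0.29 in replicates 1 and 3. Other treatments showed the trend too: against the same vehicle library, rho in replicate 2 was -0.60 with ESA plus Fer-1, -0.43 with ESA-Me plus Fer-1 and -0.33 with ESA-Me. Over 11887 genes with a mean of at least 2 CPM rho was -0.21 with ESA in that replicate, with medians of 90.3% for long and 107% for short genes. With ESA it was 0.01 and 0.03 in replicates 1 and 3. Over all genes such a trend was not confined to replicate 2. In replicate 1 rho was -0.21 with ESA plus Fer-1 and -0.40 with ESA-Me plus Fer-1, against 0.18 and 0.19 in replicate 3. The part of transcript length in the size of the change was not tested.

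Without the uninduced libraries numbered 2, 10 of the 43 genes were still called lower, and the median log2 fold change was -0.68. These 10 were Foxm1 (-0.82 ± 0.14), Ccnb2 (-0.90 ± 0.21), Plk4, the kinase that starts centriole duplication (-0.56 ± 0.15), Aurkb (-0.90 ± 0.25), Birc5 (-0.83 ± 0.20), Mad2l1 (-0.54 ± 0.15), Cdc20 (-0.70 ± 0.20), Kif22 (-0.76 ± 0.15), Tpx2 (-0.50 ± 0.14) and the contractile-ring protein Anln (-0.70 ± 0.19). Without the libraries numbered 1 or 3, 40 and 36 were called.

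In senescent cells, where mitotic genes were already low, all 46 log2 fold changes with ESA were negative in both states, and few passed the test. In H2O2-induced cells, 8 genes were lower with the block (0.241% of all genes tested), with a median of -0.83, or 56.4% of vehicle. The groups did not overlap in 11 members, which was not counted over all genes. In etoposide-induced cells, 2 genes were lower (0.0494% of all genes tested), with a median of -0.51, or 70.4% of vehicle, and all 46 overlapped. Without the block 0 genes passed in either state in edgeR, and 0 in DESeq2. At an unadjusted p under 0.05 there were 1 and 0, against 443 and 472 of all 16194 genes.

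The 8 genes of H2O2-induced cells were Nek2 (-1.27 ± 0.28, adjusted p = 0.0165), Ttk (-1.14 ± 0.26), Mybl2 (-1.10 ± 0.29), Bub1b (-0.99 ± 0.25), Ccnb2 (-0.93 ± 0.22), Birc5 (-0.92 ± 0.20), Mad2l1 (-0.58 ± 0.14) and Kif22 (-0.57 ± 0.14). Ttk, Bub1b and Mad2l1 act in the spindle assembly checkpoint, and Nek2 is a centrosomal kinase. Nek2 had 0.471, 2.29 and 2.67 CPM with ESA, against 3.16, 3.81 and 5.58 CPM with vehicle. Mybl2, which was not called in uninduced cells, had 0.471, 1.44 and 2.19 CPM with ESA, against 2.71, 2.78 and 2.59 CPM with vehicle. In both genes replicate 1 was the lowest by far, and over all members the median stood at 36.9%, 69.1% and 67.1% of vehicle in replicates 1, 2 and 3. Without the H2O2-induced libraries numbered 1, or without those numbered 3, 0 genes passed (medians -0.55 and -0.90), and without those numbered 2, 8 did.

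In etoposide-induced cells, Birc5 had 0.431, 7.1 and 2.39 CPM with ESA, against 2.01, 11.6 and 4.26 CPM with vehicle (-0.85 ± 0.20, adjusted p = 0.0448). Kif22, a chromokinesin that pushes chromosome arms, had 2.73, 6.78 and 3.21 CPM with ESA, against 3.33, 11.9 and 4.52 CPM with vehicle (-0.60 ± 0.14, adjusted p = 0.041). Each was lower in all 3 replicates, though replicate 2 stood above the others with either treatment. Without the libraries numbered 1 or 2, 0 genes passed, and without those numbered 3, 6 did. Some members had few reads in these cells: Depdc1a had 0.126 CPM and Ccnb2 0.629 CPM in vehicle replicate 1.

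The test of whether the ESA change differed between states called no member in the fit of all 45 libraries. With the block, 0 of the 46 genes were called for a difference in the ESA change between H2O2-induced and uninduced cells (median log2 difference 0.06, 0 in DESeq2). There, 4 had an unadjusted p under 0.05, near the share of all genes (1261 of 16194). Between etoposide-induced and uninduced cells 0 were called (median 0.35, 1 in DESeq2). There, 6 had an unadjusted p under 0.05, near the share of all genes (1884 of 16194). The smallest p was that of Foxm1, at 0.67 ± 0.17 (adjusted p = 0.0586), which was also the gene called by DESeq2. Without the library that did not follow its number Foxm1 was called by edgeR, at 0.68 ± 0.17 (adjusted p = 0.0373). Without all etoposide-induced libraries numbered 3 it was not, but Ccnb2 (0.83 ± 0.23), Plk4 (0.80 ± 0.21) and Tpx2 (0.62 ± 0.15) were. Each difference is positive, a smaller fall with ESA in etoposide-induced than in uninduced cells. For ESA-Me the corresponding counts were 0 in both states, and 0 in DESeq2. At an unadjusted p under 0.05 there were 1 (H2O2) and 0 (etoposide), against 434 and 779 of all 16194 genes.

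With ESA-Me, log2 fold changes were negative for all 46 genes in uninduced cells, and at most 1 gene passed the test in any state with the block. In uninduced cells the summed level was 2400, 2560 and 2480 CPM with ESA-Me, against 3060, 3400 and 3180 CPM with vehicle. The median gene stood at 78.2% of vehicle, but 0 genes were called lower with the block (0.494% of all genes tested were). There were 16 at an unadjusted p under 0.05 (2409 of all 16194 genes) and 1 called in DESeq2. Foxm1 came closest, with 56.5, 68.6 and 56.9 CPM with ESA-Me, against 76.2, 89.3 and 75.7 CPM with vehicle (-0.41 ± 0.11, adjusted p = 0.0535). In 35 members the ESA-Me libraries lay below all vehicle libraries, which was not counted over all genes.

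In H2O2-induced cells the median with ESA-Me was 67.7% of vehicle and 1 gene passed (0.13% of all genes tested were lower). It was the checkpoint kinase Ttk, with 0.519, 1.34 and 1.58 CPM with ESA-Me, against 1.56, 2.12 and 3.41 CPM with vehicle (-1.02 ± 0.26, adjusted p = 0.0484). The groups overlapped, and the call was lost without the libraries numbered 1 or 3. In etoposide-induced cells the median was 78.8% of vehicle and 0 genes passed (0.0124% of all genes tested were lower), with 0 in DESeq2. At an unadjusted p under 0.05 there were 5, a share not above that of all genes (2025 of 16194). Without the block 0 members passed in any state, with 0 at an unadjusted p under 0.05 and 0 in DESeq2.

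Cells given Fer-1 before ESA held mitotic transcripts at about the vehicle level. In uninduced cells the summed level was 2970, 3010 and 3230 CPM with ESA plus Fer-1, against 1900, 1510 and 2030 CPM with ESA. With the block, 42 of the 46 genes were higher (10.3% of all genes tested were higher), with a median log2 fold change of 0.81, or 175% of the ESA level. This comparison shares the ESA libraries with that of ESA against vehicle, so the directions are not independent. Without the block the median was 0.78 and 0 genes passed in edgeR and 0 in DESeq2. At an unadjusted p under 0.05 there were 4 of the 46, a share not above that of all genes (1892 of 16194).

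Foxm1 had 73.2, 82.5 and 72.1 CPM with ESA plus Fer-1, against 39.5, 40.1 and 46.7 CPM with ESA (0.85 ± 0.11, adjusted p = 5.32e-06). Kif11 had 69.7, 65.8 and 78.8 CPM with ESA plus Fer-1, against 39.2, 23.9 and 40.1 CPM with ESA, the highest log2 fold change of the 46 (1.06 ± 0.25, adjusted p = 0.00362). The groups did not overlap for either gene. Kif15 and the Ndc80-complex subunit Nuf2 had 1.03, the microtubule-bundling protein Nusap1 1.01 and Depdc1a 1.00. Kif20b in replicate 2 had 16.4 CPM with ESA plus Fer-1, against 4.39 CPM with ESA and 34.8 CPM with vehicle. The 4 genes not called were Mki67 (0.81 ± 0.33, adjusted p = 0.0912), Kif18b (0.45 ± 0.24), Mybl2 (0.28 ± 0.19) and Pttg1 (0.22 ± 0.11). Without the libraries numbered 2, 10 genes passed and the median was 0.67. Without those numbered 1 or 3, 33 and 28 passed.

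In H2O2-induced cells 12 genes were higher with ESA plus Fer-1 than with ESA (1.04% of all genes tested were higher), with a median of 0.76, or 170%. They were Foxm1, Mybl2, Ccnb2, Cdk1, Aurka, Nek2, Birc5, Bub1b, Kif4, Kif22, Racgap1 and Top2a. Top2a, the decatenating topoisomerase of chromosomes, had 25.9, 23 and 36.3 CPM with ESA plus Fer-1, against 6.04, 17.6 and 21 CPM with ESA (1.02 ± 0.26, adjusted p = 0.0265). All 3 libraries with Fer-1 lay above those without it. Without the libraries numbered 1, 0 genes passed and the median was 0.36, without those numbered 3, 3 passed, and without those numbered 2, 19 did.

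In etoposide-induced cells 2 genes were higher (0.463% of all genes tested were), with a median of 0.52, or 144%. Birc5 had 2.8, 11.5 and 3.64 CPM with ESA plus Fer-1, against 0.431, 7.1 and 2.39 CPM with ESA (0.85 ± 0.21, adjusted p = 0.0258), and Kif22 rose by 0.54 ± 0.15 (adjusted p = 0.0493). Neither passed without the libraries numbered 1, and Kif22 did not pass without those numbered 2 or 3 either. Without the block, 0 genes passed in either senescent state, and 0 in DESeq2. At an unadjusted p under 0.05 there were 1 (H2O2) and 0 (etoposide), against 758 and 714 of all 16194 genes.

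**Figure D4:**
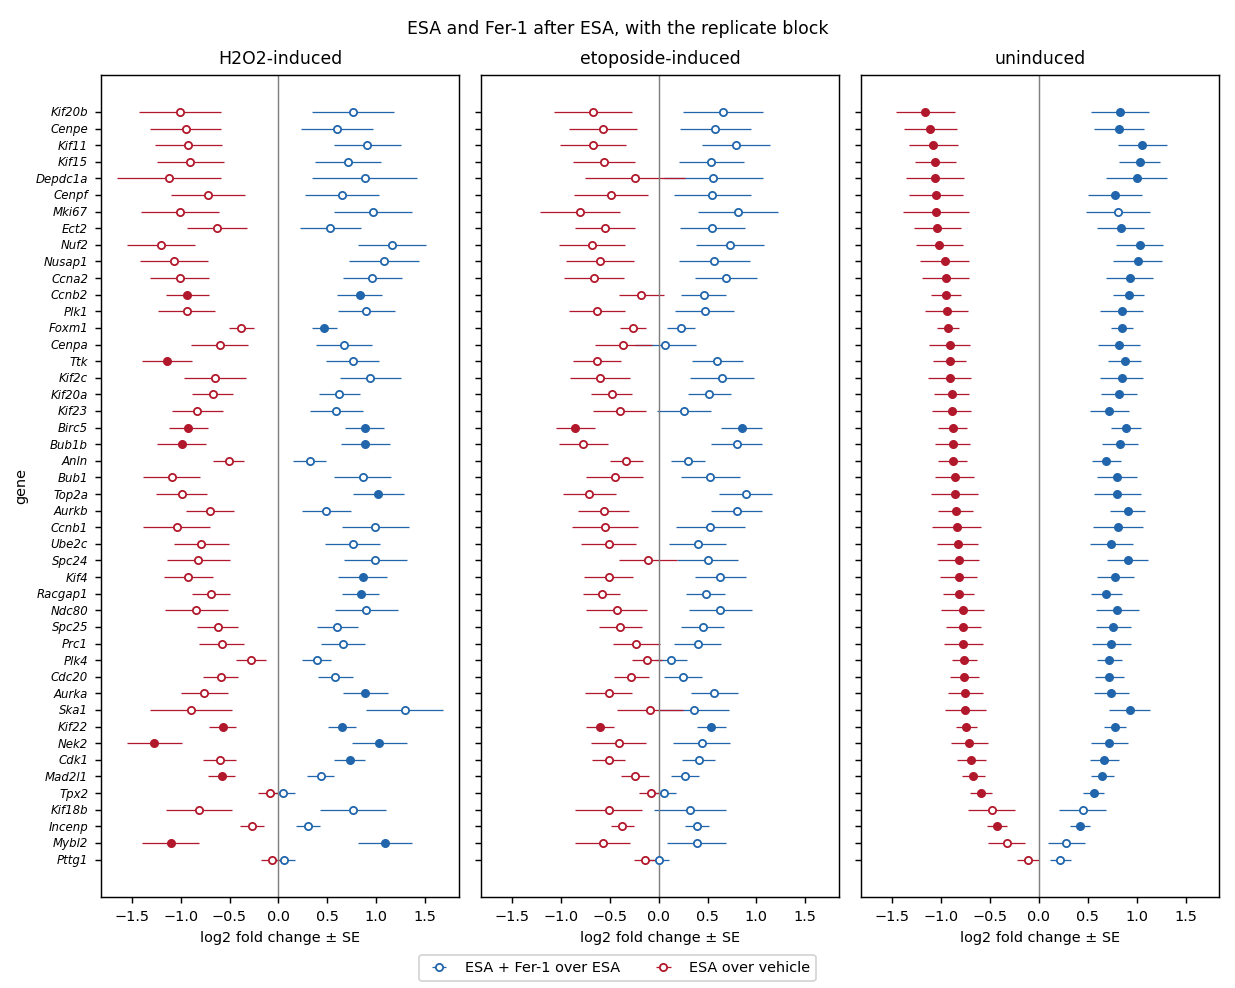
Log2 fold changes (± standard error, with the replicate block) of the 46 genes for ESA against vehicle and for ESA plus Fer-1 against ESA, by state, with filled points for genes called. Uninduced values lie from -1.16 to -0.11 for ESA and from 0.22 to 1.06 for ESA plus Fer-1, with 43 and 42 of the 46 points filled.

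With ESA-Me plus Fer-1 against ESA-Me, 1 gene was higher in uninduced cells (1.64% of all genes tested were higher) and 2 in H2O2-induced cells (0.451%), with medians of 0.38 and 0.60. Kif22 was called in both states, but 1 call among the members in uninduced cells was near the share of all genes called higher. It had 50, 52.4 and 43.2 CPM with ESA-Me plus Fer-1, against 34, 40.8 and 32.6 CPM with ESA-Me in uninduced cells (0.44 ± 0.11, adjusted p = 0.0177), and rose by 0.74 ± 0.14 in H2O2-induced cells (adjusted p = 0.0044). Birc5 was the other gene of H2O2-induced cells (0.80 ± 0.20, adjusted p = 0.0246). The Kif22 call in uninduced cells was lost without the libraries of any 1 number, and both calls in H2O2-induced cells without the libraries numbered 1 or 3.

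In etoposide-induced cells 25 genes were higher with ESA-Me plus Fer-1 (1.74% of all genes tested were), with a median of 0.84, but these calls rest on the library of replicate 3 that did not follow its number. Cdk1 had 10.4, 38.7 and 28.4 CPM with ESA-Me plus Fer-1, against 4.73, 32.9 and 14.8 CPM with ESA-Me. In that library the median gene stood at 201% of the vehicle library of replicate 3, against 126% and 106% in replicates 1 and 2. Without it 0 of the 46 genes passed and the median was 0.52. Without that library, the block fit called 18 genes for ESA and 20 for ESA plus Fer-1 against ESA in H2O2-induced cells. The share of all genes called in that fit is not given, and the cause of this shift was not tested. Without the block 0 genes passed for any of the 3 states, with 0 at an unadjusted p under 0.05 and 0 in DESeq2.

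**Figure D5:**
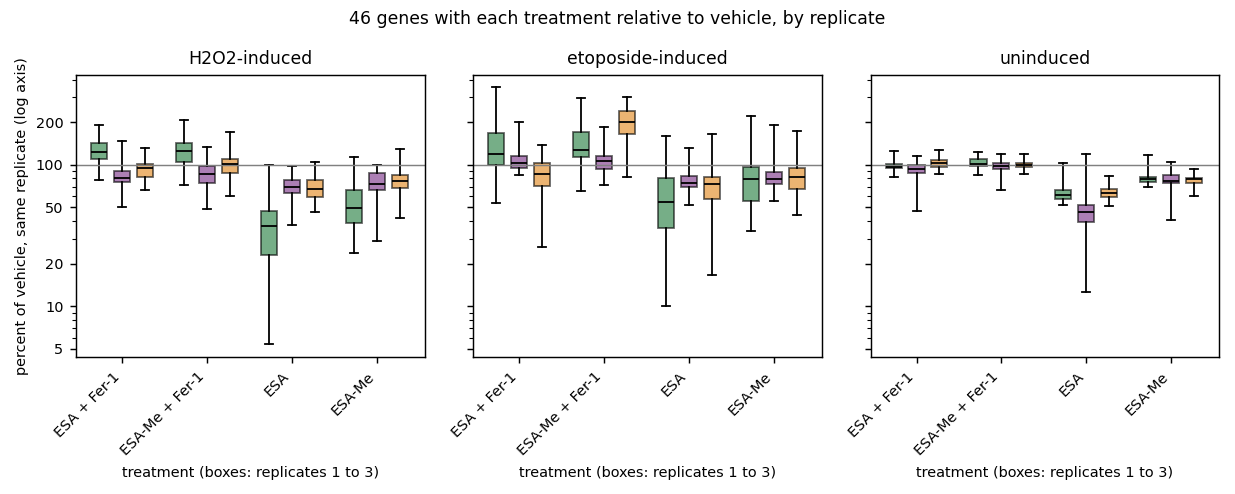
Percent of the vehicle library of the same replicate (log axis) for the 46 genes, as 1 box per replicate, treatment and state (median and quartiles, whiskers to the lowest and highest gene). Medians with ESA lie at 36.9% to 74.6%, medians with ESA plus Fer-1 in uninduced cells at 93.1% to 103%, and the box at 201% is etoposide-induced ESA-Me plus Fer-1 replicate 3.

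Against vehicle, no member was called with either compound plus Fer-1. For ESA plus Fer-1 the median log2 fold changes with the block were -0.03 without an inducer, -0.04 after H2O2 and 0.01 after etoposide. For ESA-Me plus Fer-1 they were -0.01, 0.02 and 0.49 in the same order of states, the last 0.14 without the library that did not follow its number. Both edgeR fits called 0 of the 46 genes in all 6 comparisons. At an unadjusted p under 0.05 there were 0 in 5 of them. The etoposide-induced ESA-Me plus Fer-1 group, with the library that did not follow its number, had 27 with the block (1711 of all 16194 genes). For that group DESeq2 with the block called 1 gene, and edgeR with the block called 2 without the libraries numbered 2. Further alternatives that called members there are given below. Without the library that did not follow its number, 1 gene of that group had an unadjusted p under 0.05 with the block in edgeR. A p that misses the threshold does not show that levels were equal.

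Genes of the same processes outside the 46 moved with them in part. Of 38 further kinetochore and centromere genes, 31 were lower after H2O2 and 31 after etoposide, with medians of -1.68 and -1.77. Of all genes tested, 8.56% and 8.52% were lower in these 2 comparisons, and 8.91% and 9.17% higher. With ESA in uninduced cells 26 of the 38 were lower and 2 were higher with the block (10.5% and 9.16% of all genes tested), with a median of -0.53. Zwint, which anchors the RZZ complex at kinetochores, was the highest of them with ESA (0.84 ± 0.09, adjusted p = 3.48e-07) and fell with ESA plus Fer-1 against ESA by 0.76 ± 0.09 (adjusted p = 1.85e-06). Of 24 further spindle and cytokinesis genes, 22 were lower with H2O2, 21 with etoposide and 21 with ESA in uninduced cells. Of 18 condensin and cohesin genes the counts were 13, 14 and 11, with 0 higher in either list, and of 15 regulators of Cdk1 activity 11, 11 and 12, with 1 higher in each comparison. Of 17 subunits and regulators of the anaphase-promoting complex, 6 were lower with H2O2, 5 with etoposide and 2 with ESA, and 0, 1 and 1 were higher. The 2 of 17 with ESA are near the 10.5% of all genes tested that were lower. The lowest in each was Fbxo5, its inhibitor (-2.82, -2.75 and -0.60).

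The 6 genes outside the 46 most like their mean over the 45 libraries were Knstrn and Cdca3 (Pearson r = 0.995), Ncaph, Pclaf, Ckap2l and Kntc1 (r = 0.994) among 11912 genes with a mean of at least 2 CPM. This likeness is dominated by the difference between states, which the libraries share. Within a state, over 15 libraries, a member's r with the mean of the other members had a median of 0.95 without an inducer, 0.94 after H2O2 and 0.97 after etoposide.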

How the data were processed

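Per the submitters' processing notes, FastQC, HISAT2 2.1.0, featureCounts and edgeR were used with GRCm38; their settings and the strand setting are not given in the sources used here. The deposited values are raw integer counts per gene, made by the authors from stranded total RNA libraries (per the labels). From these counts, edgeR 4.0.16 (R 4.3.3) kept 16194 genes with filterByExpr, which hold 99.95% of all counts, scaled them with TMM and fitted 1 quasi-likelihood model to 45 libraries in 15 groups. Benjamini-Hochberg adjustment covered all genes of a comparison, and genes were called at an adjusted p under 0.05. CPM are counts divided by the TMM-scaled library size in megareads. Depth was 13.5 to 59.6 megareads, and the lowest count of a member in any library was 1. No 2 libraries of a group were copies.

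Same-numbered libraries of a state deviated together in all 18 comparisons of 2 groups within a state (r = 0.26 to 0.82, other numbers at most 0.06), so the data, not the labels, give the pairing. Uninduced and induced libraries were not paired by number, while H2O2-induced and etoposide-induced vehicle libraries were. The block nested in state lowered the common dispersion to 0.0102, against 0.0722 without it.

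The members, roles and other gene lists were chosen with earlier results of these data known. Genes named are members: the 4 lowest and 4 highest log2 fold changes, those called where few were, and those that lost or missed a call. Other examples were chosen after their values were seen. The models were tested on simulated data. Alternatives were RLE scaling, no filter, DESeq2 1.42.0, only the groups compared, the block, and each library or number left out. Alternatives added after seeing the data were the block with RLE scaling or without the filter, and leaving out the library that did not follow its number. Positions are from GENCODE M21 and promoters from RefSeq, both on GRCm38.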

Additional observations from a re-analysis of the deposited data

How the results depend on the processing

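No called result reversed under the alternatives in which signs were compared gene by gene. Signs were not compared for fits with 1 library or 1 number left out. The exception was the block fit without the library that did not follow its number, where they were compared. The senescence counts kept within 1.5 times under RLE scaling, no filter, DESeq2 and each library left out, while the replicate block, which does not pair these groups, called 30 with etoposide. Within a state the fit without the block called 0 genes in each comparison, and the replicate block called 43, 8 and 2 for ESA, 0, 1 and 0 for ESA-Me, 42, 12 and 2 for ESA plus Fer-1 against ESA, and 1, 2 and 25 for ESA-Me plus Fer-1 against ESA-Me (uninduced, H2O2-induced and etoposide-induced cells in turn); the numbers pair the libraries there. With only the groups compared and no block, uninduced cells gave 29 for ESA, 26 for ESA plus Fer-1 and 1 for ESA-Me plus Fer-1.

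DESeq2 with the block gave 19 for ESA in H2O2-induced cells, 1 and 3 for ESA-Me in uninduced and H2O2-induced cells, 27 and 6 for ESA plus Fer-1 in H2O2-induced and etoposide-induced cells, 8 for ESA-Me plus Fer-1 in H2O2-induced cells, 1 for ESA-Me plus Fer-1 against vehicle in etoposide-induced cells and 1 for the ESA change there. RLE scaling with the block gave 1 for ESA plus Fer-1 in etoposide-induced cells. No filter with the block gave, after H2O2 and after etoposide, 40 and 19 for ESA and 39 and 17 for ESA plus Fer-1. It gave 24, 31 and 8 for ESA-Me and 29, 27 and 40 for ESA-Me plus Fer-1 over the 3 states, 23 for ESA-Me plus Fer-1 against vehicle in etoposide-induced cells and 6 for the ESA change there. The cause of these shifts was not tested. Counts over all genes are not given for the alternative fits or for those with libraries left out, throughout this report. For these fits, a gain of the members alone cannot be told apart from more calls over all genes.

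Leaving out 1 number or the library that did not follow its number, counts with the block ranged as follows. In uninduced cells they were 10 to 43 for ESA, 0 to 2 for ESA-Me, 10 to 42 for ESA plus Fer-1 and 0 to 3 for ESA-Me plus Fer-1. In H2O2-induced cells they were 0 to 18, 0 to 1, 0 to 20 and 0 to 5. In etoposide-induced cells they were 0 to 6, 0 to 4, 0 to 2 and 0 to 30, with 0 to 2 for ESA-Me plus Fer-1 against vehicle and 0 to 3 for the ESA change. In senescent cells low counts limit the precision: Ska1 had fewer than 10 counts in 8 libraries and Depdc1a in 7.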

Other observations

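Kinesins of intracellular transport did not move with the mitotic kinesins. Of 15 listed, 14 were tested. With vehicle, 1 was lower and 4 were higher in H2O2-induced cells, and likewise in etoposide-induced cells. Of all genes tested, 8.56% and 8.52% were lower and 8.91% and 9.17% higher, so 1 lower of 14 is near the share of all genes. Kif21b was lowest (-1.36 and -1.32) and the neuronal motor Kif5c highest (1.28 and 1.6). With ESA in uninduced cells 0 were lower and 4 were higher with the replicate block (10.5% and 9.16% of all genes tested). The next list held 21 subunits and partners of the DREAM and MuvB complexes and E2F factors. Of these, 8 were lower with H2O2, 7 with etoposide and 5 with ESA in uninduced cells (8.56%, 8.52% and 10.5% of all genes tested). With ESA 1 was higher (9.16% of all genes tested). The lowest were the repressors E2f7 with H2O2 (-2.89) and E2f8 with etoposide (-2.70) and the activator Mybl1 with ESA (-0.81).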
